A study of Mus musculus with 24 samples.

Results

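The apolipoproteins described here were 9 genes chosen by name, Apod, Apoe, Apoc1, Apoc3, Apoa1, Apoa4, Apob, Apom and Clu (clusterin, also called apolipoprotein J). All non-control microarray probes whose transcript accession belonged to these genes were taken, which gave 14 of the 56605 probes tested and 9 of the 23787 genes named on the array. Apoc3 had 3 probes, Apod, Apoe and Apob had 2 probes each, and the other 5 genes had 1 probe each. The hippocampi came from male Swiss-Webster mice, 12 weeks of age and housed singly, which drank through the dark phase either corticosterone (100 µg/ml, dissolved with 0.45% hydroxypropyl-β-cyclodextrin) or the same cyclodextrin solution without the hormone. Control and corticosterone-treated animals were killed during the first, the fifth or the ninth hour of the light phase that followed, with 8 animals in each of the 6 groups and 48 in all, and RNA was not pooled. Siblings of the treated animals served as controls. Each of the 24 arrays held a control animal labelled with Cy3 and a corticosterone-treated animal labelled with Cy5. The dyes were never exchanged, so the dye bias of a probe could not be told apart from the effect of corticosterone within an hour, whereas a constant bias cancelled between hours. Whole tissue was measured, in which fewer cells of a type and less RNA per cell cannot be told apart.

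Apolipoproteins are the protein part of lipoprotein particles: they hold lipid in solution, bind receptors that take particles up and set the activity of the enzymes that act on them. Plasma particles are built in the liver and intestine around Apob and Apoa1, whereas brain tissue makes its own particles, mainly in astrocytes, around Apoe and Clu. Apod and Apom are lipocalins, small carriers of lipids that are unrelated in fold to the other apolipoproteins, and Apod is made by glia and perivascular cells. Corticosterone is the main glucocorticoid hormone of mice and acts through the glucocorticoid receptor, a transcription factor.

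On the 24 arrays, the share of probes well above background was 60.8% to 67.2% in Cy3 and 64.0% to 73.5% in Cy5, no spot was saturated, and the number of arrays limits the precision. All 12 neuronal markers were above background in all 48 animals, which fits brain tissue; these markers are shared with other brain regions, so the hippocampal origin itself was not checked. The array of the fifth hour, replicate 7, stood apart in both channels. Its control channel correlated on average at 0.979 with the other controls of its hour, and its treated channel at 0.9787 with the other treated animals. Its choroid plexus and ependymal markers had the lowest summed intensity of that hour in both channels (4624 control, 4251 treated). The sum of 22 other apolipoprotein genes was lowest there as well (9436 control, 8373 treated). Other sums were the highest of the hour on that array. These were genes of lipid loading and lipoprotein remodelling (43180 control, 43530 treated) and oligodendrocyte markers in the treated channel (116000). In the control channel they were endothelial (22070), astrocyte (162000) and blood (77270) markers. Without this array 6 member probes were still called at each hour. Of 10 known glucocorticoid-responsive genes, 9 were higher with corticosterone during the first hour, with a median log2 fold change of 0.59, 4 during the fifth hour, with a median of 0.16, and 0 during the ninth hour, when 6 were lower and the median was -0.27.

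During the first hour 5 member probes were higher and 1 was lower with corticosterone (limma separate channel test, adjusted p below 0.05), while 8.85% of all probes were called higher and 8.67% lower. During the fifth hour 4 member probes were higher and 2 lower, against 8.62% and 9.47% of all probes, and during the ninth hour again 4 were higher and 2 lower, against 7.01% and 6.97%. The probes that passed the test at all 3 hours belonged to Apod (both probes), Apoc3 (2 of 3 probes) and Clu, whose direction depended on the normalization between arrays and was positive without it. The second lower call of the fifth and the ninth hour was an Apob probe that was below background in all animals. The median log2 fold change of the 14 probes was 0.11, 0.09 and 0.12 at the 3 hours, and that of all probes was -0.00, 0.00 and 0.00.

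**Figure D1:**
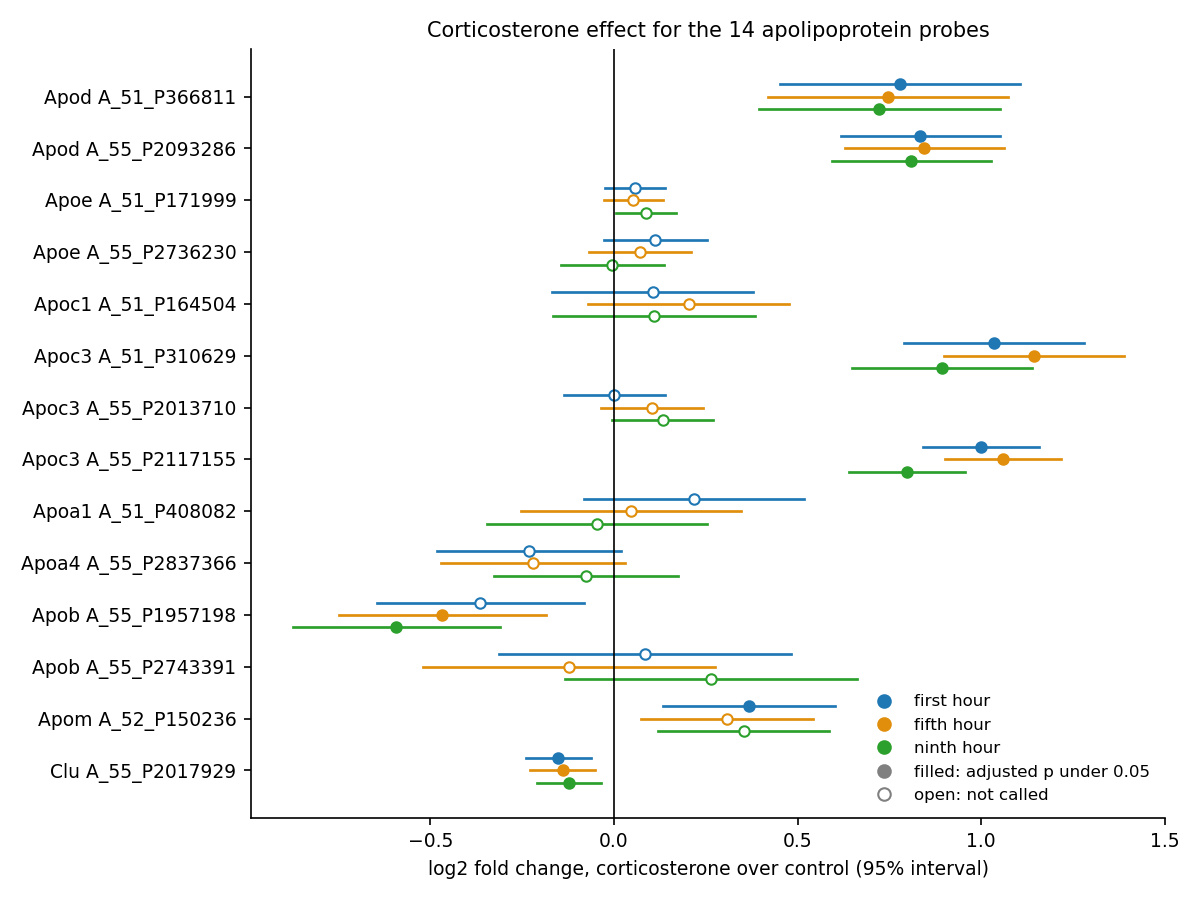
Log2 fold change of corticosterone-treated over control animals (horizontal axis) for the 14 apolipoprotein probes, with the 95% interval of the limma fit; colours give the hour and filled points passed an adjusted p of 0.05. Both Apod probes and Apoc3 A_55_P2117155 sit between 0.72 and 1.06 at every hour; the Clu probe sits between -0.15 and -0.12 with quantile normalization, and between 0.08 and 0.09 with loess normalization only. Points of Apoc3 A_51_P310629, Apom, Apoa1, Apoa4 and Apob are not measured folds, since the control group or both groups were mostly or wholly below background.

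Apod was higher in the corticosterone-treated animals at all 3 hours and by a similar amount. In the first hour the probe A_55_P2093286 (NM_007470), which was printed in 10 copies on each array, gave control intensities with a lowest value of 7066, a median of 7298 and a highest value of 9964 in arbitrary units. The corticosterone-treated animals of that hour ran from 9711 over a median of 13010 to 26490. The groups thus overlapped only in that the lowest treated animal lay under the highest control animal, and on each of the 8 arrays the treated animal was above the control animal beside it. In the fifth hour control values were 6575, 8254 and 8992 (lowest, median, highest) and treated values 10930, 14080 and 17300. In the ninth hour they were 6954, 8160 and 10150 in control and 12020, 14050 and 17840 in treated animals, and at neither of these hours did the groups overlap. The fitted difference was 78.3% (95% interval 53.5% to 107.1%; limma, adjusted p = 7e-08), 79.7% (54.6% to 109%; adjusted p = 6.2e-08) and 75.3% (50.9% to 104%; adjusted p = 3.7e-07) at the 3 hours.

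**Figure D2:**
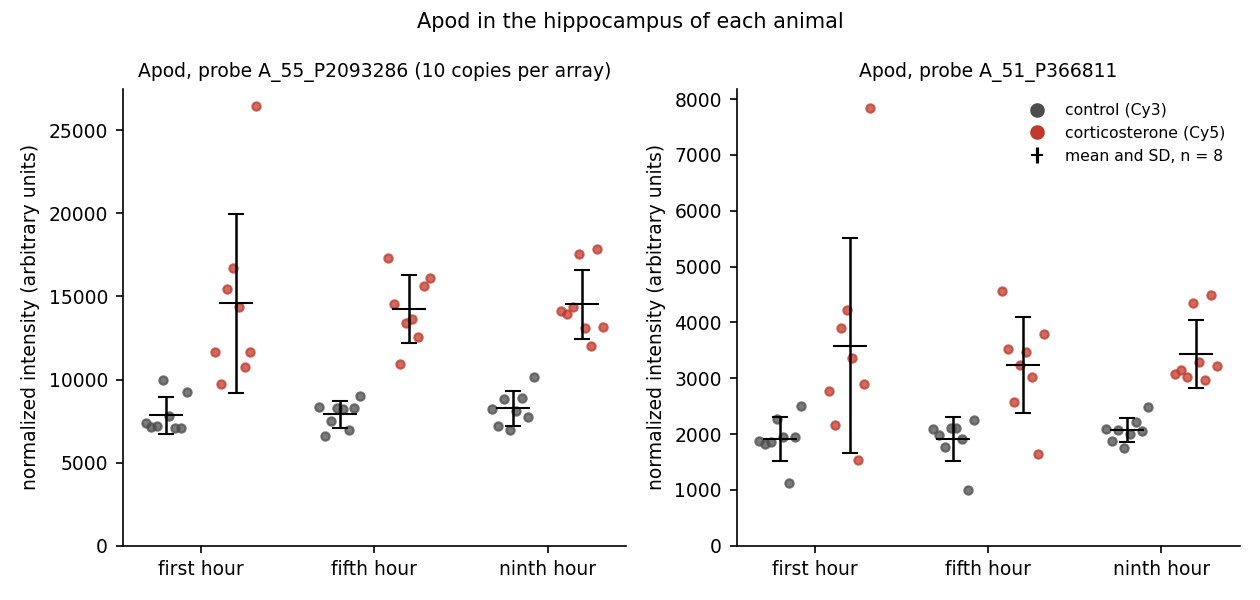
Normalized intensity (vertical axis, arbitrary units, linear) of the 2 Apod probes in each of the 48 animals by hour; bars give mean and SD of 8 animals. On the left, the control animals lie between 6575 and 10150 at all hours and the corticosterone-treated animals between 9711 and 26490.

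The other Apod probe, A_51_P366811, carried the same transcript accession and a single copy per array. Its control means were 1918 ± 396, 1905 ± 396 and 2068 ± 217 and its treated means 3587 ± 1928, 3229 ± 861 and 3440 ± 612 at the 3 hours (SD, n = 8). On 8 of 8 arrays of every hour the treated animal exceeded its control, although the groups overlapped during the first and the fifth hour. The log2 fold changes were 0.78, 0.75 and 0.72 (SE 0.16; limma, adjusted p = 3.4e-04, 6e-04 and 0.0012). Without slide 2 the adjusted p of the first hour rose to 0.059, with a log2 fold change of 0.70. Without slide 1 that of the ninth hour rose to 0.12, with a log2 fold change of 0.66. The log2 ratio of this probe was lower than that of A_55_P2093286 by 0.06, 0.10 and 0.09, which did not pass the exact sign-flip permutation test over the 8 arrays of an hour (adjusted p = 0.40, 0.098 and 0.094 over 18 comparisons of probe pairs). Across the 24 arrays the log2 ratios of the 2 probes correlated at 0.934, and at 0.935 after the mean of each hour was removed, as a description of probes read on the same arrays.

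The spread of Apod was larger between arrays than between spots of an array. Within an array, the log2 ratios of the 10 copies of A_55_P2093286 had an SD between 0.03 and 0.06, with a median of 0.04, whereas the SD between arrays was 0.34, 0.20 and 0.34 at the 3 hours and holds animals, labelling and hybridization together. In the first hour the coefficient of variation was 14.2% in control and 36.9% in treated animals, compared with 10.3% and 14.4% in the fifth and 12.5% and 14.5% in the ninth hour. A single treated animal of the first hour, replicate 8 on slide 3, reached 26490, while the next highest reached 16740. The same animal was the highest on A_51_P366811, with 7840 against 4220 for the next. It also had the highest summed intensity of the 10 glucocorticoid-responsive genes (82220, the others 51000 to 62630), of 10 endothelial markers (29700, the others 16890 to 22670) and of 12 oligodendrocyte markers (120600, the others 95810 to 105100) among the 8 treated animals of that hour. By smaller margins it was also the highest for astrocyte markers (183600, the next 179100), for markers of meningeal and perivascular fibroblasts (12620, the next 12160), for choroid plexus and ependymal markers (8176, the next 7891) and for genes of proteins that the liver secretes (379.5, the next 377.9). These and the endothelial and oligodendrocyte lists make 6 of the 11 marker lists read. That animal was the lowest treated one of the hour for markers of pericytes and smooth muscle (10630), microglia and macrophages (46180) and neurons (233000). The control animal on its array was the highest control of the hour for oligodendrocyte markers (127300) and for choroid plexus and ependymal markers (8925). The part of these markers in the Apod value of the treated animal was not tested. Without that array the log2 fold change of A_55_P2093286 in the first hour was 0.74 (adjusted p = 7.6e-08) and that of A_51_P366811 was 0.65 (adjusted p = 8.9e-04).

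Slides carried all 3 hours, and the mean log2 ratio of A_55_P2093286 within a slide lay between 0.55 and 1.10 over all slides and hours (2 to 4 arrays each), and that of A_51_P366811 between 0.40 and 0.97. In the first hour slide 1 gave the smallest values, 0.55 and 0.40 from 2 arrays.

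The Apod effect did not differ detectably between hours. The log2 fold change of A_55_P2093286 moved by -0.02 from the first to the ninth hour (95% interval -0.33 to 0.28; limma, adjusted p = 1.0), and its level moved by 0.07 in control (-0.18 to 0.33; adjusted p = 0.90) and by 0.05 in treated animals (-0.20 to 0.30; adjusted p = 0.92). Over the same hours the log2 fold change of Fkbp5, which encodes a cochaperone of the glucocorticoid receptor, went from 0.60 through 0.31 to -0.28, a change of -0.88 (adjusted p = 6.5e-07). Tsc22d3, which encodes the glucocorticoid-induced leucine zipper, went from 0.93 through 0.20 to -0.58, a change of -1.51 (adjusted p = 1.2e-10). Of all probes, 0.827% were called for a change of the effect between these hours, in either direction. For all 10 genes of that list the log2 fold change was lower at the ninth than at the first hour. The difference in time course between these genes and Apod was not itself tested.

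**Figure D3:**
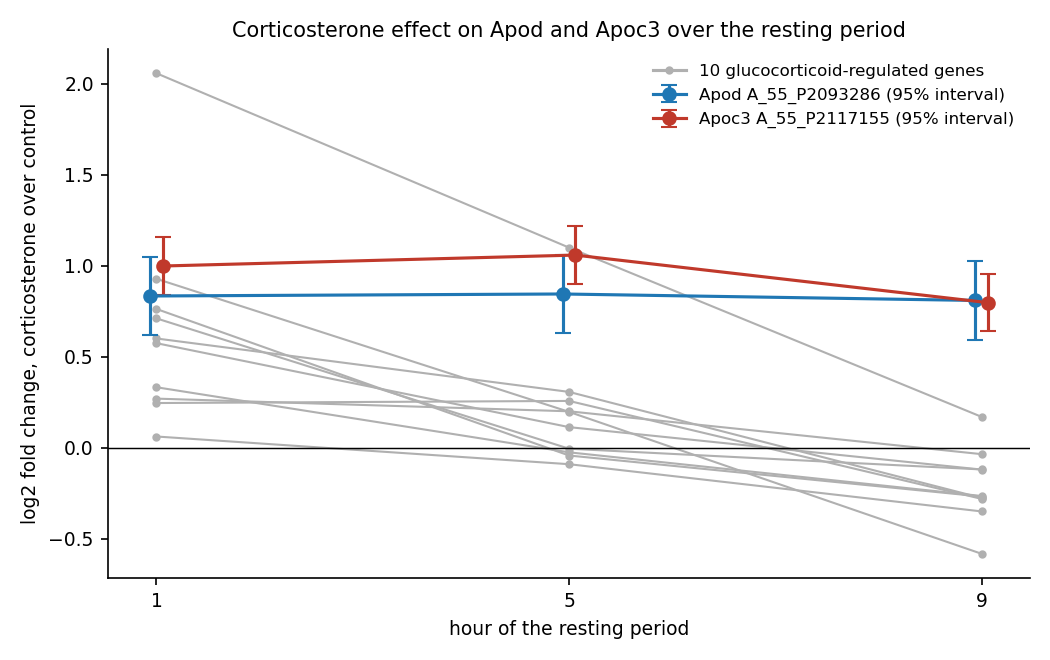
Log2 fold change of corticosterone-treated over control animals (vertical axis) at the first, the fifth and the ninth hour of the light phase (horizontal axis) for 1 probe of Apod, 1 probe of Apoc3 and 10 glucocorticoid-responsive genes in grey. Apod stays between 0.81 and 0.85 and Apoc3 between 0.80 and 1.06, while the median of the grey genes goes from 0.59 to -0.27.

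The start region of Apod is given because both of its probes were called higher at each hour, and that of Apoe because it is the central lipoprotein gene of the brain and was not called in the main analysis. The 250 bases before each start site were read from RefSeq on GRCm38.p6, 5′ to 3′ on the strand of the gene, in lower case with any match to the 6-base core of the glucocorticoid receptor motif (TGTTCT, or AGAACA on the other strand) in capitals. Apod lies on the minus strand of chromosome 16 (chr16:31314809-31315058) and the window of the first Apoe start on the minus strand of chromosome 7 (chr7:19699189-19699438).
Apod: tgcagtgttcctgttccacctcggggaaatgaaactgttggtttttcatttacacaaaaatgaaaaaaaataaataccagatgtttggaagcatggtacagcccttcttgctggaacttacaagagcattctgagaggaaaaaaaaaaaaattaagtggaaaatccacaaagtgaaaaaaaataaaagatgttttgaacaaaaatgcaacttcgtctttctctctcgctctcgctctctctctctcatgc
Apoe: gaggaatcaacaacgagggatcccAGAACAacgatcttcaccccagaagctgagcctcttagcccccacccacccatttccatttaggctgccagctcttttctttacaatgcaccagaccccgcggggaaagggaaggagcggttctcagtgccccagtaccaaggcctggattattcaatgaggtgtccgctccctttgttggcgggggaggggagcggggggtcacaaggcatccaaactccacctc

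Over windows of 300 bases (250 before and 50 after the start), 8 windows of 6 member genes were listed, and Apoc1, Apoc3 and Clu were not. The 6-base motif, searched on both strands, was not in the Apod window, was found 2 times in the first Apoe window (226 to 221 bases before the start, and 29 to 34 bases past it), 2 times in the Apoa4 window and 1 time in the Apom window. Of all 32851 windows of that length, 6233 held it. The 13-letter palindrome GNACANNNTGTNC was found in none of the 8 windows and in 0.475% of all windows. A match of letters is a description of the window and not a binding site.

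Apoc3, which inhibits lipoprotein lipase and slows the clearance of triglyceride-rich particles, was called higher on 2 of its 3 probes, at low intensity. On the probe A_55_P2117155 (NM_001289755) control animals of the first hour ran from 57.8 over a median of 66.0 to 76.7, and corticosterone-treated animals from 101.6 over 133.5 to 166.6. In the fifth hour the values were 51.4, 66.8 and 76.4 in control and 106.4, 131.4 and 153.4 in treated animals, and in the ninth hour 49.99, 62.4 and 73.8 against 98.9, 106.7 and 123.9. The groups did not overlap at any hour, and all 48 animals were well above background. The log2 fold changes were 1.00, 1.06 and 0.80 (SE 0.08; fold 2.00, 2.08 and 1.74; limma, adjusted p = 1.3e-13, 3.4e-14 and 1.9e-09). At this intensity the size depended on the offset, and with an offset of 50 the log2 fold changes were 0.62, 0.65 and 0.47.

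The probe A_51_P310629 (NM_023114) had means of 33.7 ± 8.66, 31.2 ± 7.23 and 32.4 ± 5.37 in control and 68.1 ± 10.9, 68.3 ± 12.0 and 59.9 ± 6.14 in treated animals (SD, n = 8). Only 1 of 8 control animals was well above background at each hour, compared with 8 of 8 treated animals, so the control level was mostly not measured and no fold is given. The probe was called higher at each hour (limma, adjusted p = 1.1e-08, 2.1e-09 and 1.5e-06). The groups did not overlap at any hour.

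The probe A_55_P2013710 (NM_001289756) did not follow. Its means were 126.4 ± 10.8, 112.3 ± 16.96 and 116.6 ± 12.6 in control and 126.8 ± 14.04, 120.4 ± 15.99 and 127.5 ± 10.4 in treated animals, all above background, with overlap at every hour. The log2 fold changes were 0.00, 0.10 and 0.13, with 95% intervals from -0.14 to 0.14, from -0.04 to 0.24 and from -0.01 to 0.27 (limma, adjusted p = 1.0, 0.32 and 0.20). The 3 probes are listed under 3 different transcript accessions of the same gene. By the study's annotation they detect different variants of the Apoc3 transcript, and both called probes detect the canonical one. The study also measured this gene by PCR, apart from the arrays, with primers that covered all its mRNA transcripts. It reports a corticosterone effect at every hour tested, similar to that on the called probes. Its PCR results correlated with the called probes and not with the probe that was not called. No PCR values were analysed here.

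The disagreement between Apoc3 probes was tested on the differences of log2 ratios within arrays. A_55_P2117155 exceeded A_55_P2013710 by 1.00, 0.96 and 0.66 at the 3 hours, and A_51_P310629 exceeded it as well, each on 8 of 8 arrays (exact sign-flip permutation test, two-sided, p = 0.0078, the smallest p that 8 arrays allow; adjusted p = 0.023 over 18 comparisons). The difference between the 2 called probes did not pass (exact permutation test, adjusted p = 0.81, 0.70 and 0.42). The tests that involve A_51_P310629 rest on control values that were mostly below background. Over the 24 arrays the log2 ratio of A_55_P2117155 correlated at 0.472 with that of A_51_P310629 and at -0.498 with that of A_55_P2013710. A dye bias of a probe enters these differences within an hour.

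**Figure D4:**
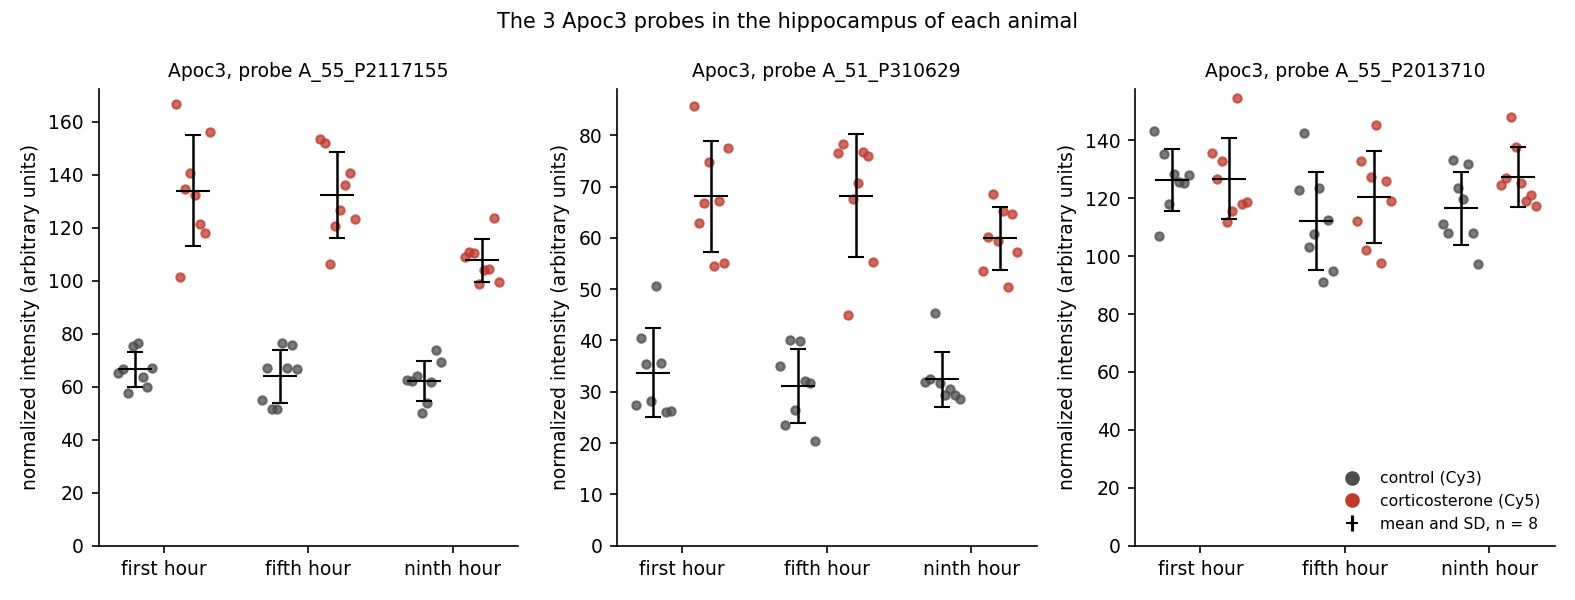
Normalized intensity (vertical axis, arbitrary units, linear, a separate scale for each probe) of the 3 Apoc3 probes in each of the 48 animals by hour; bars give mean and SD of 8 animals. On the left and middle probes no control animal reaches the lowest treated animal of its hour, and on the right probe the groups overlap at all hours.

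Between hours, where a constant dye bias cancels, A_55_P2117155 was the only member called in any comparison. In corticosterone-treated animals it was lower by 18.9% in the ninth than in the first hour (95% interval -28.7% to -7.87%; limma, adjusted p = 0.016), with means of 133.9 ± 20.98 and 107.7 ± 7.96 (SD, n = 8). The ninth hour was 18.4% below the fifth, which did not pass (adjusted p = 0.066). In control animals it moved by -6.80% from the first to the ninth hour (adjusted p = 0.77). The change of the corticosterone effect itself, -0.20 on the log2 scale, did not pass (95% interval -0.42 to 0.02; adjusted p = 0.58). The call in treated animals was lost when any of the 3 slides or the first-hour array with replicate 8 was left out, with processed scanner signals, with no normalization between arrays, and with p-values computed without the offset.

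Among all probes, 4.02% were called between the ninth and the first hour in corticosterone-treated animals, 0.546% between the fifth and the first and 0.661% between the ninth and the fifth, with 1, 0 and 0 member probes. In control animals the shares were 0.537%, 0.0053% and 0.0336% and no member probe was called, while 0, 1 and 0 had an unadjusted p below 0.05. For the change of the corticosterone effect the shares were 0.827% from the first to the ninth hour, 0.0389% from the first to the fifth and 0.083% from the fifth to the ninth, and again no member probe was called, with 1, 0 and 1 at an unadjusted p below 0.05 (limma).

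Within slides the mean log2 ratio of A_55_P2117155 lay between 0.64 and 1.33 and that of A_55_P2013710 between -0.12 and 0.22 over all slides and hours. Apoc3 sits between Apoa1 and Apoa4 in the gene order of RefSeq, with Apoa5 and Zpr1 after them. Apoa1, Apoa4, Apoa5 and Zpr1 were not called at any hour, and of these 4 only Zpr1 was well above background in all animals, with log2 fold changes of 0.01, -0.02 and -0.01.

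Apoe, which carries cholesterol from astrocytes to neurons and binds lipoprotein receptors, was not called on either probe after quantile normalization between arrays, and the brighter probe was called at every hour without that step. The probe A_51_P171999 (NM_009696) ranked 52 in brightness among all probes, with means of 81430 ± 3523, 81580 ± 5650 and 82420 ± 5410 in control and 84720 ± 3909, 84480 ± 3271 and 87490 ± 4054 in treated animals (SD, n = 8). The treated animal exceeded its control on 5, 5 and 6 of 8 arrays, and the log2 fold changes were 0.06, 0.05 and 0.09 (SE 0.04; limma, adjusted p = 0.30, 0.33 and 0.10). Without normalization between arrays they were 0.29, 0.29 and 0.30 (adjusted p = 2.7e-07, 1.7e-07 and 3.3e-07). The probe A_55_P2736230 (NM_001305843) had log2 fold changes of 0.11, 0.07 and -0.00 (SE 0.07; limma, adjusted p = 0.24, 0.50 and 0.98), with 6, 6 and 3 of 8 arrays higher. The log2 ratios of the 2 probes differed by -0.06, -0.02 and 0.09 (exact permutation test, adjusted p = 0.40, 0.81 and 0.42) and correlated at 0.373 over the 24 arrays.

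Clu, a secreted chaperone that is packed with Apoe into the particles of the brain, was called at each hour with a small difference. Its probe A_55_P2017929 ranked 91 in brightness. Control values of the first hour ran from 65740 over a median of 73380 to 93520, and treated values from 64780 over 67460 to 69840. In the fifth hour they were 67990, 73690 and 82530 in control and 61570, 67820 and 73270 in treated animals, and in the ninth hour 68960, 74750 and 78570 against 62490, 68770 and 71140. The groups overlapped at all hours, and the treated animal was lower on 7 of 8 arrays each time. The fitted difference was -9.96%, -9.23% and -8.14% (limma, adjusted p = 0.0063, 0.011 and 0.033), and its sign turned with the normalization between arrays, as given next. The call was also lost without slide 2 in the first hour, without slide 1 or 2 in the fifth, and without any of the 3 slides in the ninth. The log2 fold changes of these fits lay between -0.14 and -0.10. In the ninth hour it was lost as well with p-values computed without the offset (adjusted p = 0.054) and with limma on the log2 ratios (adjusted p = 0.061).

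For these very bright probes the quantile step, which gives both channels of all arrays the same distribution, changed the result. With loess normalization within arrays only, the log2 ratio of Clu was 0.08, 0.09 and 0.09, higher on 6, 7 and 7 of 8 arrays, and that of Apoe A_51_P171999 was 0.29, 0.29 and 0.30, higher on 8 of 8 arrays at every hour. Aquantile normalization gives only the average log2 intensity of both channels the same distribution on all arrays. It leaves the log2 ratios as they are with loess only, so it is no separate check of their direction. With it Apoe A_51_P171999 was called at every hour (limma, adjusted p = 1.6e-08, 1.3e-08 and 2e-08), and Clu had adjusted p of 0.097, 0.033 and 0.055 with the opposite sign. The 100 brightest probes moved with them: their median log2 ratio was 0.25, 0.31 and 0.26 with loess only and -0.02, 0.05 and 0.00 after the quantile step. The direction for Clu and the size for Apoe A_51_P171999 are therefore not settled by these arrays. The other Apoe probe A_55_P2736230 had 0.08, 0.05 and -0.03 with loess only. Apod moved by less than 0.05 between the same settings, with 0.79, 0.82 and 0.77 for A_55_P2093286 with loess only.

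**Figure D5:**
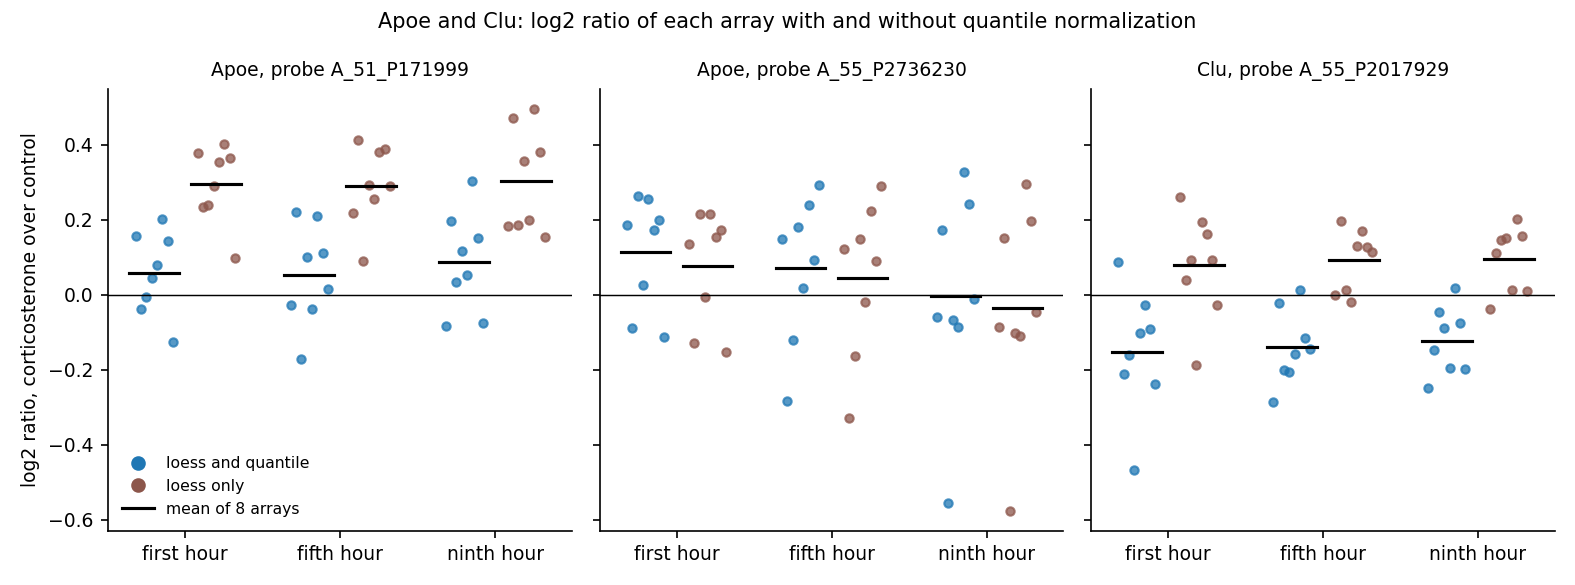
Log2 ratio of corticosterone-treated over control animal (vertical axis) on each of the 8 arrays of an hour for 2 Apoe probes and the Clu probe, after loess and quantile normalization (blue) and after loess only (brown); black lines are means. The means of Clu turn from between -0.15 and -0.12 to between 0.08 and 0.09, and those of Apoe A_51_P171999 go from at most 0.09 to about 0.29.

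Apoc1, which lies beside Apoe and limits the uptake of particles by receptors, was not called at any hour. Its means were 474.4 ± 148, 437.9 ± 123 and 531.3 ± 97.1 in control and 506.9 ± 126, 500.4 ± 126 and 573.8 ± 103 in treated animals (SD, n = 8). The log2 fold changes were 0.11, 0.20 and 0.11 (SE 0.14, limma, adjusted p = 0.64, 0.32 and 0.63). The log2 ratios had an SD between arrays of 0.27, 0.44 and 0.34. In the gene order of RefSeq Apoc1 and Apoe are flanked by Apoc2, Apoc4 and Tomm40, and none of these 5 genes was called at any hour by its brightest probe.

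Apoa1, Apoa4 and Apob were near or below background. Apoa1, the main protein of high density lipoprotein, was well above background in 0 of 48 animals, with group means between 17.8 and 19.98 and no call at any hour (limma, adjusted p = 0.43, 0.86 and 0.86). Apoa4, of intestinal particles, was above background in 1 of 48 animals, a control of the ninth hour, and was not called (adjusted p = 0.22, 0.30 and 0.62). Apob, the structural protein of low density lipoprotein, was below background in all animals on both probes. A_55_P1957198 was called lower in the fifth and the ninth hour (limma, adjusted p = 0.12, 0.020 and 0.0087 at the 3 hours), with control means of 19.1, 22.2 and 20.4 and treated means of 14.9, 16.1 and 13.9. No fold is given for it, since neither group was measured above background. The fifth-hour call was lost without slide 1 or 3 and with a separate fit for each hour (adjusted p = 0.076), and the ninth-hour call without slide 1 and with processed scanner signals (adjusted p = 0.21). The other Apob probe, A_55_P2743391, was not called (adjusted p = 0.71, 0.88 and 0.25). Of 12 genes for other proteins that the liver secretes, 0 were above background in all 48 animals.

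Apom, which carries sphingosine-1-phosphate in plasma, was above background in 0 control animals and in 4, 2 and 2 of 8 treated animals at the 3 hours. Its control means were 22.95 ± 6.03, 25 ± 5.73 and 21.7 ± 6.23 and its treated means 28.9 ± 3.12, 30.5 ± 2.90 and 27.1 ± 3.86. It was called higher in the first hour (limma, adjusted p = 0.039), and the fifth and the ninth hour did not pass (adjusted p = 0.076 and 0.074). No fold is given, since no control animal and at most 4 of 8 treated animals of an hour were measured above background. The first-hour call was lost when any of the 3 slides was left out, with no background correction (adjusted p = 0.10) and with a separate fit for each hour (adjusted p = 0.068). The fifth hour was called with processed scanner signals (adjusted p = 0.0056), and the ninth with p-values computed without the offset (adjusted p = 0.035).

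Among 22 other apolipoprotein genes, each read by its brightest probe, 1 was higher and 3 were lower in the first hour, 1 and 2 in the fifth, and 2 and 2 in the ninth, against the shares of all probes given above. Their median log2 fold changes were -0.04, -0.02 and 0.03. Apoh, a plasma glycoprotein that binds anionic phospholipid, was higher at each hour, by 0.64, 0.62 and 0.57 on the log2 scale (limma, adjusted p = 9.1e-05, 1.2e-04 and 6.2e-04), on 8 of 8 arrays each time, and was above background in 45 of 48 animals. Apoo, a subunit of the contact site complex of mitochondria, was lower, at -0.26, -0.26 and -0.22 (adjusted p = 6.1e-04, 5e-04 and 0.0041), on 8 of 8 arrays each time. Apoa2, a component of high density lipoprotein, was above background in all animals and had 0.08, 0.08 and 0.05 (adjusted p = 0.26, 0.26 and 0.50).

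Of 22 lipoprotein receptor genes, 4 were higher and 4 lower in the first hour, 2 and 7 in the fifth, and 2 and 4 in the ninth, beside 8.85% higher and 8.67% lower, 8.62% and 9.47%, and 7.01% and 6.97% of all probes, with median log2 fold changes of -0.01, -0.08 and -0.01. Lrp1b, a large endocytic receptor, was lower in the first and the fifth hour, with log2 fold changes of -0.30 and -0.35 (limma, adjusted p = 0.035 and 0.014). Stab2, a scavenger receptor, was higher in the first and the fifth hour by 0.37 and 0.36 (adjusted p = 0.0042 and 0.0051). Trem2, a microglial receptor that binds Apoe and Clu, had -0.21 in the first hour (adjusted p = 0.060) and was lower, at -0.33 and -0.31 in the fifth and the ninth (adjusted p = 0.0020 and 0.0052). 

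Of 24 genes that load lipid onto particles or remodel them, 2 were higher and 7 lower in the first hour, 2 and 4 in the fifth, and 2 and 3 in the ninth, against the same shares of all probes, with median log2 fold changes of -0.01, -0.07 and 0.04. Angptl4, which like Apoc3 inhibits lipoprotein lipase, was higher at all hours, with log2 fold changes of 0.36, 0.32 and 0.41 (limma, adjusted p = 0.0043, 0.012 and 0.0018). Lpl, the lipase itself, named after its values were seen, was lower in the first hour, at -0.15 (adjusted p = 0.024) and had -0.10 and 0.11 at the later hours (adjusted p = 0.15 and 0.11), and its effect changed by 0.27 from the first to the ninth hour (adjusted p = 0.044). Abcg1, which exports cholesterol to particles, was lower at all hours, at -0.21, -0.19 and -0.19 (adjusted p = 7.8e-05, 4.2e-04 and 4.3e-04). Pltp, which transfers phospholipid between particles, was lower in the first and the fifth hour, at -0.27 and -0.39 (adjusted p = 0.014 and 4e-04). Abca2, a lipid transporter of myelinating cells, was higher in the same hours by 0.26 and 0.22 (adjusted p = 0.0041 and 0.014). Mylip, a ubiquitin ligase, was lower in the first hour, at -0.28 (adjusted p = 3e-05) and had 0.01 in the ninth, a change of 0.29 (adjusted p = 0.016).

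Of 32 genes of cholesterol synthesis and its regulators, 3 were higher and 8 lower in the first hour, 2 and 10 in the fifth, and 1 and 7 in the ninth, again beside those shares of all probes, with median log2 fold changes of -0.03, -0.10 and -0.09. The isomerase Idi1 was lower at all hours, with log2 fold changes of -0.35, -0.41 and -0.41 (limma, adjusted p = 2.4e-06, 9.7e-08 and 2.6e-07), and the synthase Hmgcs1, which feeds the pathway, at -0.25, -0.23 and -0.24 (adjusted p = 1.6e-04, 4.7e-04 and 2.7e-04). Rxrg, a retinoid X receptor that pairs with the sterol-sensing receptors, was lower in the first and the fifth hour, at -0.39 and -0.28 (adjusted p = 0.0044 and 0.039). Ppara, a receptor for fatty acids, was higher in these hours by 0.33 and 0.21 (adjusted p = 7.1e-04 and 0.033). Cyp46a1, the neuronal enzyme that turns cholesterol into a form that leaves the brain, was higher in the first hour by 0.23 (adjusted p = 0.019).

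Markers of cell types that make apolipoproteins were read beside these results, against the shares of all probes given above. Of 12 astrocyte markers, 5 were higher and 2 lower in the first hour, 5 and 3 in the fifth, and 3 and 2 in the ninth, with median log2 fold changes of 0.08, -0.01 and -0.07. Their summed intensity ran from 135200 to 161400 in control and from 156100 to 183600 in treated animals of the first hour, and it was higher in the treated animal on 8, 8 and 7 of 8 arrays at the 3 hours. Of 12 oligodendrocyte markers, 2 were higher and 5 lower at each hour, with median log2 fold changes of -0.15, -0.21 and -0.24. Their sums ran from 109100 to 127300 in control and from 95810 to 120600 in treated animals of the first hour, and were lower in the treated animal on 8, 7 and 8 of 8 arrays. Of 14 choroid plexus and ependymal markers, 1 was higher and 1 lower in the first hour, 0 and 1 in the fifth, and 1 and 0 in the ninth, with median log2 fold changes of 0.01, -0.05 and -0.02. Their sums ran from 7096 to 8925 in control and from 5887 to 8176 in treated animals of the first hour, and were lower in the treated animal on 8, 8 and 7 of 8 arrays. Of 8 markers of pericytes and smooth muscle, 0 were higher and 1 lower at each hour. Of 8 markers of meningeal and perivascular fibroblasts, 1 and 0, 0 and 1, and 0 and 0 were called. The fibroblast medians were -0.15, -0.30 and -0.21. Of 10 endothelial markers, 2 and 4, 3 and 2, and 2 and 1 were called higher and lower at the 3 hours. Their sums were higher in the treated animal on 7, 3 and 3 of 8 arrays. Of 12 markers of microglia and macrophages, 0 and 3, 1 and 2, and 0 and 0 were called. Their sums were higher in the treated animal on 5, 7 and 5 of 8 arrays. Of 6 markers of oligodendrocyte precursors, 1 and 0, 1 and 0, and 0 and 1 were called. Their sums were higher in the treated animal on 6, 7 and 3 of 8 arrays. A sum is carried by the brightest genes of its list and need not follow the median. The part of these markers in the Apod and Apoc3 results was not tested.

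Among probes of other named genes with a mean intensity of 50 or more, those whose log2 ratios followed Apod A_55_P2093286 most closely over the 24 arrays were Aqp7, which encodes a channel for water and glycerol (Pearson r = 0.742), Itpr3 (0.694) and F13a1 (0.691). For Apoe A_51_P171999 they were Selenon (0.853), Sncb (0.839) and LOC108167368 (0.838), and for Clu Nfix (0.799), Ppard (0.794) and Tkfc (0.777). For Apoc3 A_55_P2013710, the brightest probe of that gene and not among those called, they were Gdap10 (0.730), Rnf214 (0.701) and Prn (0.678). These correlations describe arrays that share dyes, slides and normalization. Of the 3 probes most like Apod only Aqp7 was called, with log2 fold changes of 0.21, 0.23 and 0.17 (limma, adjusted p = 0.037, 0.018 and 0.14).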

How the data were processed

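Hippocampal RNA of single animals was hybridized to two-color Agilent 8x60K mouse arrays, and the deposited scanner files hold spot and local background intensities, used here, and processed signals that the authors' Agilent Feature Extraction run made with its standard background subtraction and Lowess normalization, used as an alternative; marks of 0 or 1 for outlier, saturated and well-above-background spots are also in the deposited files. The deposited value table holds log2 ratios of Cy5 over Cy3 that the authors normalized; its values matched normexp with an offset of 50 followed by loess, with a median absolute difference of 0.00119, and it was used as an alternative. No column was left without a sample (0).

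Intensities were background corrected (normexp), normalized within arrays (loess) and between arrays (quantile) in limma 3.58.1 with statmod 1.5.0 (R 4.3.3), after the design of the study's methods. Control spots and outlier-marked spots were left out, copies of a probe were averaged, and 77 probes with a missing value were fitted on the other arrays. A single separate channel fit over 24 arrays and 6 groups of 8 animals was used, with 1 intraspot correlation for all probes (0.279). P-values came from data with an offset of 50, fold changes and SE from data without offset, and p-values were adjusted by the Benjamini-Hochberg procedure over 56605 probes (threshold 0.05). Probe pairs of a gene were compared by exact permutation tests (SciPy 1.17.1). Symbols came from RefSeq (GRCm38.p6) through the transcript accession, which named 34566 probes; probes with other identifiers were left unnamed.

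All member probes are named, and up to 5 genes per list with a mean intensity of 50 or more, an adjusted p below 0.05 at an hour and the largest difference in the first hour; Lpl, Apoa2, Fkbp5, Tsc22d3 and the neighbouring genes were named outside this rule, after their values were seen. Members and gene lists were chosen with earlier results of these data known. Alternatives covered offsets, background correction, both normalizations, filters on dim probes, the test, slides and single arrays. Single values of some genes in these lists are not reported here.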

Additional observations from a re-analysis of the deposited data

Results flagged for a closer look

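In 9 of the 126 sets of 8 animals or arrays examined for the members, the highest or the lowest value lay far from the other 7 (Dixon's criterion on log2 values, which chance alone meets in about 1 of 20 sets). Apod on A_51_P366811 had a lowest control of 1127 in the first hour, where the next was 1825, and of 992.1 in the fifth hour, where the next was 1773. The ninth-hour array with replicate 3 on slide 1 held 4 of the 9: Apoe A_55_P2736230 with a log2 ratio of -0.56 and a treated intensity of 13130, Apoc1 with a log2 ratio of -0.67, and Apoc3 A_51_P310629 with a control intensity of 45.3, the highest of its hour. Apoc1 had a highest control of 822.8 in the first hour. Below background, Apoa1 had a highest treated value of 27.2 in the first hour and Apob A_55_P1957198 a highest control of 29.5 in the ninth. The causes were not tested.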

How the results depend on the processing

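Under the 20 alternatives, 2 of them chosen after the data were seen (without the fifth-hour array with replicate 7, and without the first-hour array with replicate 8), Apod A_55_P2093286, Apoc3 A_55_P2117155 and Apoc3 A_51_P310629 kept their direction and stayed past the threshold at all hours wherever they were tested, with log2 fold changes from 0.68 to 0.96 and from 0.47 to 1.33 for the first and the second of them. The count of 6 member probes called fell to 3 in the first hour without slide 2 and to 3 in the ninth hour without slide 1, with fewer arrays in the fit. The member called between the ninth and the first hour in treated animals (1) fell to 0 without slide 1, 2 or 3, without the first-hour array with replicate 8, with p-values from an offset of 0, with processed scanner signals and with no normalization between arrays. Of 18 comparisons of probe pairs, 7 were called different, 1 of them Apob in the ninth hour, below background on both probes. The count became 12 with no background correction and with the authors' value table. It became 3 with a mean intensity of 50 or more, where fewer pairs were tested. Without slide 1, 2 or 3 it became 0, with 4 to 6 arrays per hour. The arrays left without slide 2 or 3 are too few for an adjusted p that passes. Without slide 1 an adjusted p could pass only if every first-hour and fifth-hour pair reached the smallest p, so the 0 there says little as well. Pairs that changed between hours (0) became 1 without slide 3. Except where a construction is named, the cause was not tested.

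The sign of Clu turned with Aquantile and with no normalization between arrays (0.0781, 0.0917 and 0.0946 at the 3 hours) and with the authors' value table (0.0885, 0.110 and 0.103). The other sign changes were in values that were not called on either side. Without slide 1 they were Apoe A_55_P2736230 in the ninth hour (0.12), Apoc3 A_55_P2013710 in the first (-0.0253), Apob A_55_P2743391 in the fifth (0.146), and the effect's change between the first and ninth hours for Apoc3 A_51_P310629 (0.000946) and Apob A_55_P2743391 (-0.134). Without slide 2 they were Apoa1 in the fifth and ninth hour (-0.00426 and 0.0721) and that change for Apod A_51_P366811 (0.0801), Apod A_55_P2093286 (0.101), Apoe A_51_P171999 (-0.0117), Apoc1 (-0.163) and Clu (-0.0362). Without slide 3 they were Apoe A_55_P2736230 in the fifth hour (-0.0111), Apoc1 in the first (-0.0591), Apoc3 A_55_P2013710 in the first (-0.0184), Apoa1 in the fifth (-0.0310), Apob A_55_P2743391 in the first (-0.224), and the change for Apod A_51_P366811 (0.00241), Apod A_55_P2093286 (0.0512) and Apom (0.0205). Without the first-hour array with replicate 8 and without the fifth-hour array with replicate 7, the change was 0.0689 and -0.0556 for Apod A_51_P366811 and 0.0739 and -0.0245 for A_55_P2093286. With processed scanner signals Apoa1 had -0.146, -0.0558 and 0.0539 at the 3 hours and a change of 0.20, Apob A_55_P1957198 a change of 0.0974, and Apob A_55_P2743391 had -0.0229 in the first hour. Apob A_55_P2743391 in the fifth hour had 0.0118 with an offset of 50 for fold changes, 0.00649 with no background correction and 0.00132 with the authors' value table, and the Apoc1 change was -0.00697 with Aquantile and with no normalization between arrays, and -0.00441 with the authors' value table. Slide as a block changed no call. The values of Apoa1, Apob, Apom and Apoc3 A_51_P310629 above are fitted differences of probes mostly or wholly below background in the control group or both, not measured folds.

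Signal limits Apoa1, Apoa4, Apob and Apom, which were mostly below background. Each array paired a control with a treated animal, which the separate channel test takes in through the intraspot correlation, assumed the same for all probes. The fit paired by array, limma on the log2 ratios, called 6, 6 and 5 member probes. No paired analysis was possible between hours or by litter because the labels give no numbers that tie the animals of different arrays or name litters. Dye bias cannot be told apart from the effect within an hour.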
